A study of Mus musculus with 6 samples.

Results

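Genes of the liver X receptor (LXR) pathway and of lipoprotein handling were described in macrophages sorted from ischemic calf muscle. The set holds 10 genes, chosen by name from the 55353 rows of the deposited count table: the receptors Nr1h2 and Nr1h3, the cholesterol exporters Abca1 and Abcg1, the apolipoprotein genes Apoe and Apoc2, and Pltp, Mylip, Lpcat3 and Vldlr. All 10 have a row, and 9 passed the filter on low counts, Vldlr only through its KO libraries. Apoc2 was listed at 0 throughout. In the comparison of knockout with wild type, 3 of these 9 genes rose (Pltp, Abca1 and Vldlr) by edgeR's quasi-likelihood test at an adjusted p under 0.05. Of all 14987 genes tested, 6.64% were called in either direction, 4.39% higher and 2.25% lower. With KO replicates 1 and 2 left out, for the reason given below, the log2 fold changes of Pltp, Abca1 and Vldlr were 1.5, 1.28 and 2.28. That fit rests on 1 KO library, and far fewer of all genes were called in it. None of the 9 was called lower by edgeR, with Lpcat3 lower at an unadjusted p of 0.0073 and DESeq2 and limma-voom each calling 1 lower. Over all genes, DESeq2 called 778 lower and limma-voom 2249.

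The cells came from mice labelled WT or pfkfb3-ko (KO here), with 3 libraries each, all of the mixed strain label 129S1/Sv * 129X1/SvJ * C57BL/6 * CBA. Both groups received 1 mg of tamoxifen on each of 5 days, then at least 7 days without treatment, and were sampled at 3 days after hindlimb ischemia, the interruption of the blood supply of a leg. The design text marks the deletion with EC, and the study's title speaks of endothelial cells, which line vessels. The labels name neither the Cre driver nor the age or sex of the mice. They do not say whether libraries of a group are separate animals, and the spread that the p-values rest on may therefore be technical. Each sample held 7000 to 50000 sorted cells. Pfkfb3, a gene whose enzyme speeds glycolysis, had levels of 70.9, 101 and 82.4 CPM (counts scaled to a common library size) in WT replicates 1 to 3, against 55.5, 59.3 and 160 CPM for KO replicates 1 to 3 (edgeR log2 fold change 0.11, adjusted p = 0.89; limma-voom with sample weights called it lower, -0.65, adjusted p = 0.015). Where a deletion is made in endothelial cells, the level in macrophages is no check of the labels.

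Libraries differed in more than the genotype label. Totals were 18853712 to 29060584 counts, of which protein-coding genes held 16976422 to 22726111 in WT and 9168139 to 12407034 in KO; the small RNA model Gm23935 took 13.7% to 16.8% of WT counts and 31.7% to 46.3% of KO counts. Levels are therefore given as CPM after TMM scaling, which sets the bulk of genes equal between libraries. Female-specific Xist reached 154 and 171 CPM in KO replicates 1 and 2 but no more than 0.465 CPM elsewhere, and Y-linked Ddx3y was at 60.5 to 69.2 CPM in the other 4 libraries. KO replicates 1 and 2 were also the most alike, with a chi-square statistic per degree of freedom of 3.87 over tested protein-coding genes, where other pairs had 29.5 to 119. They stood above sampling noise, which does not show that they come from separate animals, and were kept as separate samples. Xist was high only in KO libraries, so sex type and genotype cannot be fully told apart. Results are also given without KO replicates 1 and 2, in a fit that rests on KO replicate 3 and assumes it varies like the WT libraries.

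LXRs are nuclear receptors that bind oxysterols and other sterols and act as heterodimers with retinoid X receptors (RXRs) on paired DNA half-sites separated by a spacer of fixed length, the DR4 element. In macrophages that have taken up cell debris and lipoproteins, they are known to raise genes that move cholesterol out of the cell and remodel lipoproteins and membrane phospholipids. Nr1h2 encodes LXR beta, found in most cells, and Nr1h3 encodes LXR alpha, found in macrophages, liver and fat.

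The promoters of the 3 genes that rose are shown because Abca1 carries one of the best known LXR elements next to its start site. The sequences are the 250 bases before the RefSeq start site (GRCm38.p6), at chr4:53159896-53160145 on the minus strand for Abca1, at chr2:164857709-164857958 on the minus strand for Pltp and at chr19:27216234-27216483 on the plus strand for Vldlr. Capitals mark a match to a DR4 element in relaxed spelling, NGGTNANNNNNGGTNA, searched on both strands.
Abca1: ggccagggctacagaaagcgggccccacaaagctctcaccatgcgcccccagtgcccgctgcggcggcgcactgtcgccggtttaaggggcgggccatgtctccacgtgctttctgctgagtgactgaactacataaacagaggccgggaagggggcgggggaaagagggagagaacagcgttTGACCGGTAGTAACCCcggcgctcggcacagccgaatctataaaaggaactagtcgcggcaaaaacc
Pltp: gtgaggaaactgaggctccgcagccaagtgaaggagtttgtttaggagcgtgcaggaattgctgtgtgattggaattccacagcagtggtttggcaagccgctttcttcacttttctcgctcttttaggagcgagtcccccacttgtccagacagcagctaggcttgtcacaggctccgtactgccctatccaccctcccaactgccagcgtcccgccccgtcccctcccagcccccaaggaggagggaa
Vldlr: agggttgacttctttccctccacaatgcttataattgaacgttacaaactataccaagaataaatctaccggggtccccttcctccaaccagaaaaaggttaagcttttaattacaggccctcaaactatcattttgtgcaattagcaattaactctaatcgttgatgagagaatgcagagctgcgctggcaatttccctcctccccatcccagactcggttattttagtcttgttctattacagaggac
The match in Abca1 lies 67 to 52 bases before the start site and reads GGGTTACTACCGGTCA on the other strand. RefSeq windows were found for 9 of the 10 genes, all but Abcg1, which was therefore not searched. Abca1 alone among the 9 held this spelling, which 0.621% of all 32851 windows held. That share is per window, and the 9 genes had 13 windows. The Abca1 element was known beforehand and the relaxed spelling admits it, so this match is no test. None of the 9 held the consensus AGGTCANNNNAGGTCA, which occurred in 0.0152% of windows. The half-site AGGTCA was found in Apoc2 alone among the 9 and in 14.0% of all windows, and the core of the hypoxia response element, ACGTG, was found in Abca1 and Apoc2 and in 16.6% of all windows; each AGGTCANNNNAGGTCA also holds AGGTCA. No match says only that these letters are not in this window.

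Neither receptor gene passed the test. Nr1h2 (chromosome 7, 44549616 to 44553951, GRCm38) had 54.7, 60.3 and 49.4 CPM in WT replicates 1 to 3, against 60.5, 61.6 and 67.4 CPM for KO replicates 1 to 3. The KO libraries lay just above the highest WT library. The log2 fold change of Nr1h2 was 0.20 (SE 0.13; 95% interval -0.083 to 0.49; adjusted p = 0.37, edgeR quasi-likelihood test, as are all adjusted p-values below unless another test is named). Nr1h3 (chromosome 2, 91184061 to 91202834) was at 34.9, 41.4 and 27.6 CPM in WT and at 47.2, 49.0 and 31.7 CPM in KO. Its groups overlapped, since KO replicate 3 lay within the WT range. The log2 fold change of Nr1h3 was 0.30 (interval -0.17 to 0.77; adjusted p = 0.43), and it was -0.18 with KO replicates 1 and 2 left out.

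The balance of the receptors was also read as a ratio within each library, which no scaling factor can move. Per kilobase of exon, the ratio of Nr1h3 to Nr1h2 was 0.852, 0.915 and 0.746 in WT and 1.04, 1.06 and 0.627 in KO. KO replicates 1 and 2 were highest and KO replicate 3 was lowest of all 6 libraries. The mean log2 ratio differed by 0.085 between groups (WT -0.26 ± 0.15, KO -0.18 ± 0.43, n = 3 each, SD; two-sided exact permutation p = 0.8), and turned to -0.033 without KO replicate 1 and to -0.046 without KO replicate 2.

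Of the cholesterol exporters, Abca1 rose 2.06-fold, and Abcg1 was not called. Abca1 (chromosome 4, 53030787 to 53159895) moves cholesterol and phospholipid to lipid-poor apolipoproteins, the first step of HDL formation. It was at 508, 480 and 331 CPM in WT and at 824, 779 and 1110 CPM in KO, and every KO library lay above every WT library. Its log2 fold change was 1.04 (SE 0.21, interval 0.56 to 1.52, 2.06-fold, adjusted p = 0.024). The call was lost without WT replicate 2 (adjusted p = 0.081), WT replicate 3 (0.056), KO replicate 1 (0.067) or KO replicate 2 (0.074), and was 0.063 with both KO replicates 1 and 2 left out, where the fold change was larger (1.28). With library sizes alone it was 0.43 (adjusted p = 0.15), in a setting that shifted the median of all genes to -0.60.

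Abcg1 (chromosome 17, 31057675 to 31117988) passes cholesterol on to mature HDL particles. It was at 179, 179 and 102 CPM in WT and at 201, 187 and 232 CPM in KO. The groups did not overlap, but WT replicates 1 and 2 came close to the KO libraries, and the log2 fold change was 0.43 (interval -0.056 to 0.92; adjusted p = 0.27). Per kilobase of exon, Abcg1 stood to Abca1 in a ratio of 0.499, 0.529 and 0.439 in WT and 0.347, 0.340 and 0.296 in KO. This ratio was lower in 3 of 3 KO libraries than in any WT library, with a mean log2 ratio of -1.04 ± 0.14 in WT and -1.61 ± 0.12 in KO (SD, n = 3 each). The difference was -0.58, with an exact two-sided permutation p of 0.1, the smallest that 3 against 3 libraries allow.

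**Figure D1:**
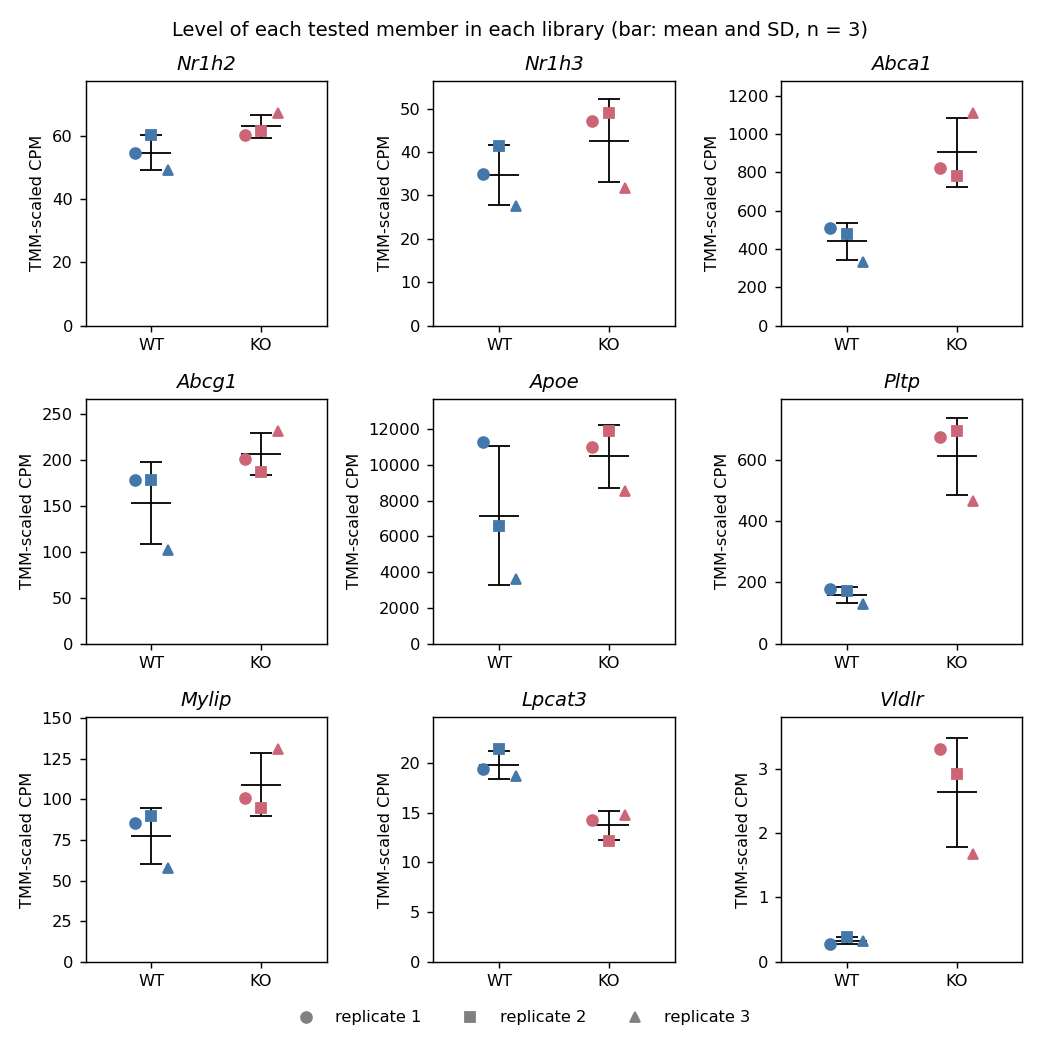
TMM-scaled CPM of the 9 tested genes in each library, WT in blue and KO in red, with the mean and SD of 3 libraries per group as bars. Pltp, Abca1 and Vldlr show the widest gaps between groups, and the KO libraries of Lpcat3 (12.1 to 14.8 CPM) lie below all WT libraries (18.7 to 21.4 CPM).

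Pltp, which encodes the phospholipid transfer protein that moves phospholipid between lipoproteins and enlarges HDL, was called higher under each alternative run. Pltp (chromosome 2, 164839518 to 164857711) was at 177, 170 and 130 CPM in WT and at 674, 693 and 466 CPM in KO. The lowest KO library lay well above the highest WT library, and within each group replicate 3 was lowest. The log2 fold change was 1.94 (SE 0.20, interval 1.49 to 2.39, 3.84-fold, adjusted p = 0.0019). Pltp kept its call in 16 of 16 alternatives, with log2 fold changes of 1.32 to 2.11 and adjusted p-values of up to 0.038. Pltp shares 495 of its 2562 exonic bases (19.3%) with Ctsa on the opposite strand. Ctsa, named after its values were seen, had a mean of 544 ± 53.9 CPM in WT against 567 ± 47.7 CPM in KO (n = 3 each, SD), a log2 fold change of 0.059.

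Apoe was by far the most abundant of the genes, and its groups overlapped. Apolipoprotein E (chromosome 7, 19696109 to 19699188) is the ligand by which lipoprotein remnants bind their cell surface receptors, and macrophages secrete it as an acceptor of cholesterol. It was at 11300, 6590 and 3610 CPM in WT and at 11000, 11900 and 8530 CPM in KO. WT replicate 1 lay within the KO range while WT replicate 3 was lowest of all 6 libraries. The group means were 7150 ± 3860 and 10500 ± 1750 CPM (SD, n = 3 each; log2 fold change 0.55, interval -0.31 to 1.41, adjusted p = 0.43). Apoe was called higher in 1 of 16 alternatives, limma-voom with sample weights (0.82, adjusted p = 0.0093).

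Apoc2, which encodes the activator of lipoprotein lipase, was listed at 0 in every library. Its row (chromosome 7, 19671579 to 19677941) holds 0 counts in all 6 libraries, where 3 counts would be 0.0822 to 0.214 CPM. In GENCODE M21, 646 of its 813 exonic bases (79.5%) are also exons of the gene model Gm44805 on the same strand, whose row is at 0 as well. Over the whole table, all 115 protein-coding genes whose every exonic base is shared with another gene of the same strand were at 0 in every library, against 19.5% of 19931 that share none on that strand. Apoc2 belongs to neither class: of 1550 protein-coding genes that share some of their bases, 14.4% were at 0. Whether the overlap sets the 0 of Apoc2 was not tested, and its ratio to Apoe was not computed.

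Among the genes that act on lipoprotein receptors and membranes, Vldlr rose, Mylip was not called and Lpcat3 was the only one of the 9 genes below 0. Vldlr (chromosome 19, 27216484 to 27254231) encodes the very low density lipoprotein receptor, which binds particles that carry apolipoprotein E. It had 7, 14 and 11 counts in WT replicates 1 to 3 and 62, 41 and 26 counts in KO replicates 1 to 3, or 0.271, 0.384 and 0.323 CPM against 3.31, 2.92 and 1.68 CPM. All KO libraries were higher, KO replicate 3 least so, at counts low enough that a few reads matter. At its WT levels alone Vldlr would not have passed the filter on low counts. It was tested only through the KO libraries, where it is high. The log2 fold change was 2.99 (SE 0.43, interval 2.0 to 3.97, 7.93-fold, adjusted p = 0.0084). Vldlr kept its call in each of the 6 fits that leave out 1 library (adjusted p of up to 0.046) and lost it with KO replicates 1 and 2 both left out (2.28, adjusted p = 0.092).

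Mylip (chromosome 13, 45389742 to 45412022), also called Idol, encodes the ubiquitin ligase by which LXRs lower the VLDL receptor. It was at 85.3, 89.5 and 57.5 CPM in WT and at 101, 94.8 and 131 CPM in KO. The groups did not overlap, and the gap between WT replicate 2 and KO replicate 2 was small. Its log2 fold change of 0.49 (interval 0.045 to 0.94) had an unadjusted p of 0.035 and an adjusted p of 0.18.

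Lpcat3 (chromosome 6, 124663027 to 124704418) encodes an enzyme that puts polyunsaturated chains into membrane phospholipids. It was at 19.4, 21.4 and 18.7 CPM in WT and at 14.3, 12.1 and 14.8 CPM in KO. The groups did not overlap and the KO libraries were lower, with a log2 fold change of -0.53 (interval -0.88 to -0.18) and an adjusted p of 0.074. Lpcat3 passed the threshold without KO replicate 3 (adjusted p = 0.04997) and with 3 other alternatives, DESeq2 among them (0.026). It shares 334 exonic bases (10.2%) with Emg1 on the opposite strand, and Emg1, named after its values were seen, had a mean of 23.9 ± 3.60 CPM in WT against 21.8 ± 2.44 CPM in KO (n = 3 each, SD).

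**Figure D2:**
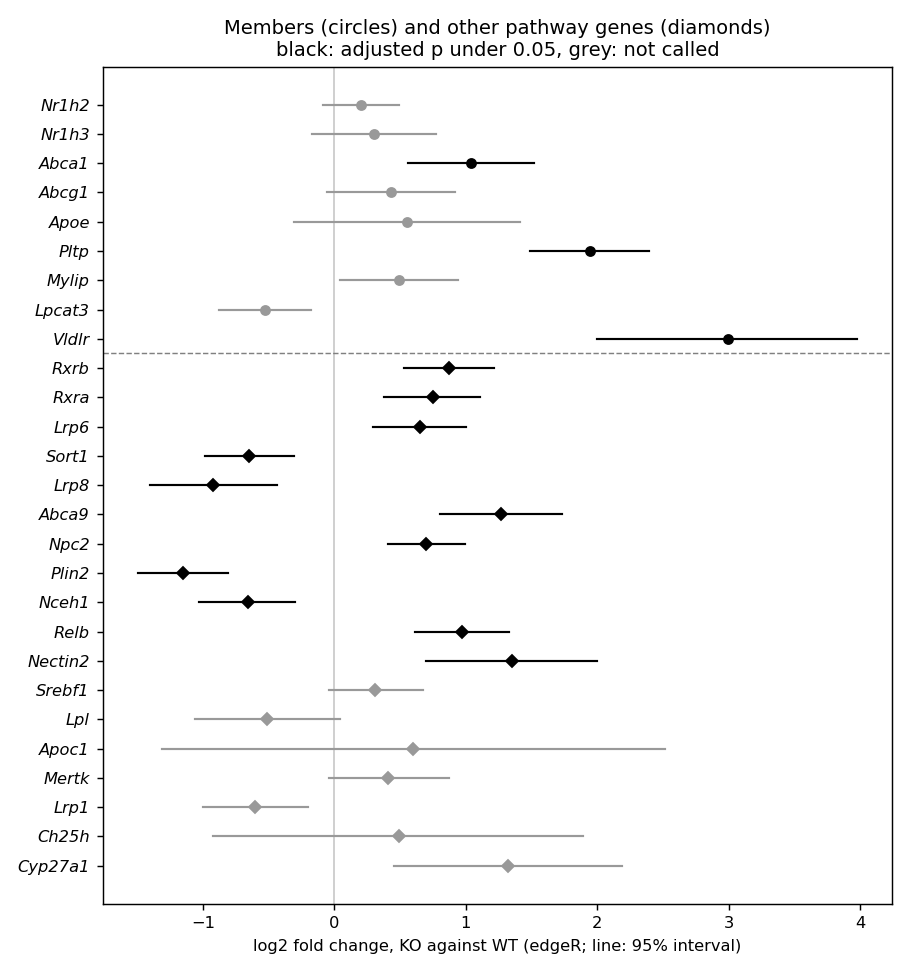
Log2 fold changes of KO against WT with 95% intervals for the 9 tested genes (circles) and for other named genes of the pathway (diamonds), black where the adjusted p was under 0.05 and grey otherwise. Pltp (1.94) and Vldlr (2.99) lie farthest to the right, and Plin2 (-1.15) lies farthest to the left.

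Taking the 9 tested genes side by side, 8 had a log2 fold change above 0, with a median of 0.49, where 51.2% of all genes lay above 0 with a median of 0.013. Groups did not overlap in 7 of the 9 genes, 6 higher and 1 lower in KO, where 31.5% of all genes showed no overlap in either direction. With library sizes alone only Pltp, Abca1 and Vldlr stayed above 0. The same 8 genes lay above the shifted median of all genes. This was nearly fixed in advance, since leaving out the TMM factors moves all genes by a similar amount, and it is no separate support. Relative to the shifted median the values in this setting were 0.19 for Nr1h2, 0.42 for Abcg1, 0.53 for Apoe and -0.53 for Lpcat3, close to those with TMM.

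Within the groups the genes fell into different patterns. In WT, replicate 3 was lowest for 8 of the 9 genes, Vldlr being the exception, where 35.7% of all genes were lowest in that library. The summed level of 8 macrophage markers was lowest there too, at 6140 CPM against 8650 and 7520 CPM in WT replicates 1 and 2. Most of that sum was Lyz2, at 5290, 4320 and 3340 CPM in WT replicates 1 to 3. Ptprc, Csf1r, Cd68 and Mertk were also lowest in replicate 3, and Mertk is among the other LXR targets below as well. Adgre1 differed little (482, 504 and 481 CPM), Itgam was lowest in replicate 2 and Fcgr1 was highest in replicate 3 (112, 163 and 202 CPM). The part of macrophage content in the pattern was not tested. In KO, replicate 3 was highest for Nr1h2, Abca1, Abcg1, Mylip and Lpcat3, and 42.1% of all genes were highest in that library. It was lowest for Nr1h3, Apoe, Pltp and Vldlr, as it was for 41.8% of all genes. This library is the one that differs in sex type from the other KO libraries.

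Compared per kilobase of exon, the order of mean levels was the same in both groups: Apoe, Pltp, Abca1, Mylip, Abcg1, Nr1h2, Nr1h3, Lpcat3 and Vldlr. Apoe was at 3350 ± 1800 CPM per kilobase in WT and 4900 ± 818 in KO, and Vldlr was at 0.0324 ± 0.00558 and 0.262 ± 0.0846 (SD, n = 3 each). Neighbours whose ranges overlapped in both groups were Mylip with Abcg1 and Nr1h2 with Nr1h3. Abcg1 overlapped Nr1h2 in WT (14.0 to 24.5 against 14.7 to 18) and lay above it in KO (25.6 to 31.8 against 18 to 20.1).

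**Figure D3:**
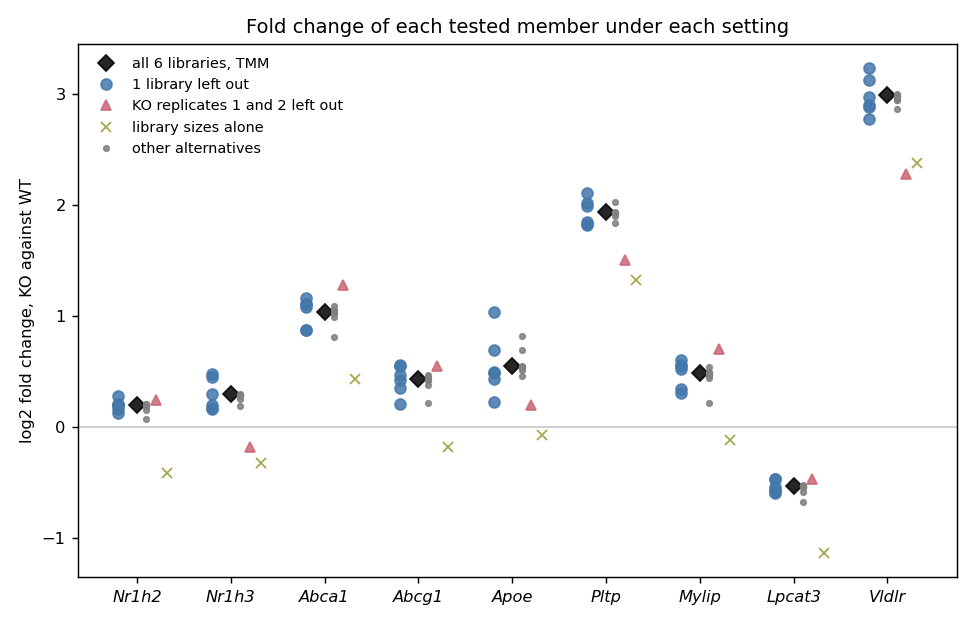
Log2 fold change of KO against WT (vertical axis) for each tested gene under every setting tried: all libraries with TMM, each library left out, KO replicates 1 and 2 left out, library sizes alone, and the others. Pltp stays between 1.32 and 2.11, and Nr1h2, Nr1h3, Abcg1, Apoe and Mylip fall below 0 with library sizes alone.

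The partners of LXR were described next, with 11 genes listed and 10 tested. The RXR genes Rxra and Rxrb rose and edgeR called none of the other 8, with a list median of -0.022; DESeq2 and limma-voom each called 1 gene of the list lower. Rxra was at 93.4, 83.3 and 62.0 CPM in WT and at 131, 140 and 130 CPM in KO (log2 fold change 0.75, SE 0.16, adjusted p = 0.030). Rxrb was at 27.7, 23.8 and 21.7 CPM in WT and at 40.4, 43.0 and 50.7 CPM in KO (0.87, SE 0.15, adjusted p = 0.015). For both genes every KO library lay above every WT library. Without WT replicate 2 (adjusted p = 0.10), WT replicate 3 (0.060), KO replicate 1 (0.098) or KO replicate 2 (0.14), Rxra was not called. That of Rxrb was lost when either WT replicate 2 (0.073) or KO replicate 2 (0.068) was absent.

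Of 16 other known LXR targets, 13 were tested and edgeR called 0, with a median log2 fold change of 0.31. DESeq2 called 3 of them higher and 2 lower, and limma-voom called 6 higher and 4 lower. Over all genes, DESeq2 called 1092 higher and 778 lower and limma-voom 2601 and 2249, the counts to set beside each list. Srebf1, the lipogenic transcription factor that LXR induces, was at 38.9, 43.9 and 46.8 CPM in WT and at 55.7, 61.7 and 43.9 CPM in KO (0.31, adjusted p = 0.26; -0.032 with KO replicates 1 and 2 left out). Mertk, the receptor for apoptotic cells, was at 101 ± 24.4 and 135 ± 22.6 CPM (adjusted p = 0.26). Lpl, the lipase that Apoc2 activates, was at 691, 516 and 1010 CPM in WT and at 554, 574 and 429 CPM in KO (-0.51, adjusted p = 0.25). Apoc1 was at no more than 2.84 CPM in any library.

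Among 12 other lipoprotein receptor genes, 11 were tested, of which edgeR called 1 higher and 2 lower, with a median of 0.22. DESeq2 called 2 higher and 3 lower, and limma-voom 6 higher and 3 lower. Lrp8, the apolipoprotein E receptor 2 and like Vldlr a receptor of reelin, went the other way from Vldlr and fell to 7.75 ± 0.573 CPM in KO from 14.7 ± 3.71 CPM in WT (n = 3 each, SD; -0.92, adjusted p = 0.036). Sort1, which encodes sortilin, fell from 64.6 ± 11.2 to 41.3 ± 1.11 CPM (adjusted p = 0.036), and Lrp6, better known as a Wnt co-receptor, rose from 139 ± 25.5 to 217 ± 8.94 CPM (adjusted p = 0.043). Each of the 3 calls was lost without WT replicate 2, KO replicate 1 or KO replicate 2, and also without WT replicate 1 for Sort1 and Lrp6 and without WT replicate 3 for Lrp8 and Lrp6 (adjusted p of up to 0.15). Lrp1, the large receptor that takes up apolipoprotein E remnants, was at 4180, 3340 and 3850 CPM in WT and at 2500, 2680 and 2330 CPM in KO, with no overlap (-0.60, adjusted p = 0.077). Among the alternatives, DESeq2 (adjusted p = 0.0012) and limma-voom (0.0049) called Lrp1 lower.

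Cholesterol transport and storage genes moved in both directions, with 2 of 14 tested genes higher and 2 lower of 16 listed, and a median of 0.16. Plin2, the coat protein of lipid droplets, fell and was at 452, 402 and 542 CPM in WT and at 197, 221 and 210 CPM in KO (-1.15, SE 0.15, adjusted p = 0.0053). Plin2 kept its call without any 1 library and had an adjusted p of 0.063 with KO replicates 1 and 2 left out. Nceh1, a hydrolase of cholesteryl esters, fell to 122 ± 13.5 CPM in KO from 193 ± 36 CPM in WT (n = 3 each, SD; adjusted p = 0.045, lost in each of the 6 leave-outs, up to 0.17). Npc2, which carries cholesterol out of the lysosome, rose from 327 ± 3.68 to 531 ± 39.2 CPM (0.70, adjusted p = 0.017), and the transporter gene Abca9 rose from 59.3 ± 17.9 to 143 ± 6.22 CPM (1.27, adjusted p = 0.011). Npc2 was no longer called without WT replicate 2 (0.089), WT replicate 3 (0.0522), KO replicate 1 (0.097) or KO replicate 2 (0.13), nor was Abca9 without WT replicate 2 (0.057) or KO replicate 2 (0.0524).

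Markers of other cells moved in the same libraries, and fewer cells of a type cannot be told apart from less RNA per cell in bulk samples. Macrophage markers were abundant in all libraries, with a summed level of 6140 to 8650 CPM in WT and 8750 to 9070 CPM in KO over 8 genes, none at 0; Csf1r rose (log2 fold change 1.05, adjusted p = 0.01) and Cd68 fell (-0.74, adjusted p = 0.034). Of 8 fibroblast markers, 6 were tested and 4 were called higher (Col1a1, Col1a2, Col3a1 and Dpt). Pdgfra (edgeR adjusted p = 0.33) and Dcn (0.37) were not called. The summed level of the 8 was 10.2 to 39.4 CPM in WT and 134 to 184 CPM in KO. Most of this sum was collagen: in KO replicate 1, Col1a1, Col1a2 and Col3a1 were at 79.1, 43.1 and 48.9 CPM and Dcn at 2.19 CPM. Lum and Thy1 were at 0 in WT replicate 1. Of 8 myoblast and muscle markers, 3 of 6 tested were called higher, with sums of 9.48 to 13.2 CPM and 41.5 to 62.0 CPM. Of 8 endothelial markers, 3 fell (Pecam1, Cdh5 and Tek), with sums of 42.9 to 78.5 CPM in WT and 15 to 29.7 CPM in KO. Kdr was not called (edgeR adjusted p = 0.99), at 13.4, 12.3 and 11.5 CPM in WT and 16.3, 14.6 and 6 CPM in KO. Emcn, at 0 in KO replicates 2 and 3, was not called either (edgeR adjusted p = 0.069). Neutrophil markers fell in 1 of 4 tested (Mmp8), with overlapping sums and the defining marker Ly6g at 0 in every library. Most of this sum was Csf3r, at 57.7, 49.9 and 33.8 CPM in WT and 40.9, 46.6 and 67.9 CPM in KO. Mmp8 was at 15.8, 9.68 and 6.57 CPM in WT and 1.44, 2.14 and 3.42 CPM in KO, with no overlap. Of 8 adipocyte markers, 2 were tested and Fabp4 fell, and summed levels were 32 to 51.1 CPM in WT and 26.4 to 31.5 CPM in KO. Most of this sum was Fabp4, and Adipoq was at no more than 0.285 CPM in any library. Of 8 glial markers, 4 were tested and the lowest edgeR adjusted p was 0.22, with sums of 66.9 to 92.2 CPM and 70.8 to 101 CPM.

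Fibroblasts, muscle cells and endothelial cells can express Pltp, Vldlr and Apoe too, and the part of these cells in the results was not tested. Among the WT libraries alone, the fibroblast marker sum, mostly collagen genes, was 10.2, 19.6 and 39.4 CPM in replicates 1 to 3. There Pltp was at 177, 170 and 130 CPM and Vldlr at 0.271, 0.384 and 0.323 CPM. The KO libraries, in the same order, had fibroblast sums of 177, 184 and 134 CPM, where Pltp was at 674, 693 and 466 CPM and Vldlr at 3.31, 2.92 and 1.68 CPM.

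**Figure D4:**
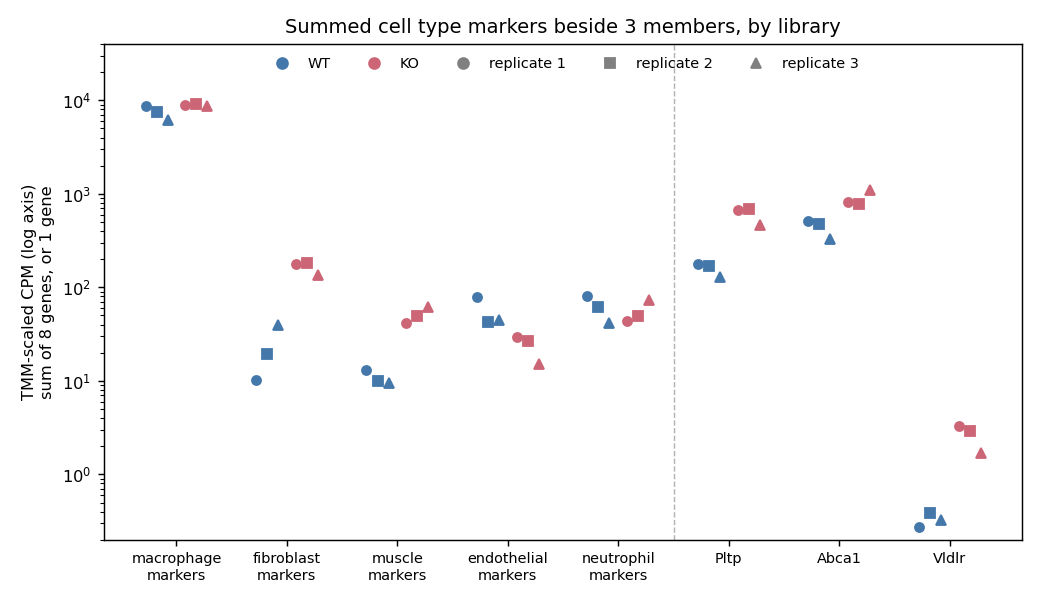
Summed TMM-scaled CPM of 8 marker genes per cell type (left of the dashed line) and CPM of Pltp, Abca1 and Vldlr (right) in each library, on a log axis, WT in blue and KO in red. Macrophage sums lie between 6140 and 9070 CPM, while fibroblast sums rise from at most 39.4 CPM in WT to at least 134 CPM in KO.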

How the data were processed

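The authors deposited a table of raw counts per gene, with 1 column for each library, 3 WT and 3 KO. Per the submitters' processing notes, Trim Galore, FastQC, HISAT2, featureCounts and DESeq were used with GRCm38; for tool versions, gene annotation and strandedness the entry is: not given in the sources used here. Symbols matched GENCODE M21 for 53322 rows, which gave exon lengths and overlaps. A set of 26 rows whose symbols had turned into dates (0.0913% to 0.163% of counts) was left out.

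Deposited counts were tested with edgeR 4.0.16 in R 4.3.3 (filterByExpr, TMM, quasi-likelihood test, two-sided, no covariate) over 14987 genes, with Benjamini-Hochberg adjustment over all of them and a threshold of 0.05. Intervals are 95% intervals. Values are TMM-scaled CPM; 3 counts in a library came to 0.0822 to 0.214 CPM. Totals were 18853712 to 29060584 counts. Ratios within a library were compared with exact permutation tests in scipy 1.17.1. Alternatives were DESeq2 1.42.0, limma 3.58.1 (voom with sample weights), other scaling and filters, libraries left out or summed, a replicate block and protein-coding genes alone. The fits were tested on simulated data.

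The genes and lists were chosen with earlier results of these data known. Besides the 10 genes, the text names the called genes of each pathway list (at most 4 per direction by smallest p), a fixed set (Srebf1, Lpl, Apoc1, Mertk, Rxra, Lrp1, Ch25h, Cyp27a1, and 1 gene not reported here), Pfkfb3, Xist, Ddx3y and examples of markers.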

Additional observations from a re-analysis of the deposited data

How the results depend on the processing

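Pltp kept its call in 16 of 16 alternatives, Vldlr in 15 and Abca1 in 8; Nr1h2, Nr1h3, Abcg1 and Mylip were called in 0 of 16. Counts of changed genes, 658 higher and 337 lower with all libraries and TMM, were 300 and 6008 with library sizes alone, 1034 and 923 with no count filter, 1092 and 778 with DESeq2, 2601 and 2249 with limma-voom, 101 and 48 with KO replicates 1 and 2 left out, and 220 and 62 with these summed. Leaving out 1 library gave 154 to 963 higher and 35 to 689 lower. The 9 tested genes, with 3 higher and 0 lower, gave 1 higher with KO replicates 1 and 2 left out, 1 lower with library sizes alone, DESeq2 or limma-voom, and 2 to 3 higher and 0 to 1 lower in the leave-outs. The pathway lists, with 7 higher and 4 lower, gave 2 and 30 with library sizes alone, 11 and 9 with no count filter, 12 and 8 with DESeq2, 22 and 11 with limma-voom, 0 and 0 with KO replicates 1 and 2 left out, and 1 and 1 with these summed; protein-coding genes alone gave 7 lower, and the leave-outs 0 to 11 higher and 1 to 4 lower.

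Log2 fold changes that changed sign with library sizes alone, where the median of all genes was -0.60, were -0.41 for Nr1h2, -0.32 for Nr1h3, -0.18 for Abcg1, -0.069 for Apoe, -0.12 for Mylip, -0.31 for Srebf1, -0.20 for Mertk, -0.13 for Ch25h and -0.50 for Pfkfb3. With KO replicates 1 and 2 left out, Nr1h3 was at -0.18 and Srebf1 at -0.032. Leaving out 1 library moved Ch25h between -0.0041 and 1.25 and Apoc1 between -0.81 and 1.38, and turned Pfkfb3 to -0.0043 without WT replicate 1 and -0.56 without KO replicate 3. With limma-voom Apoc1 was at -0.31 and Pfkfb3 at -0.65 (adjusted p = 0.015). The log2 ratio of Nr1h3 to Nr1h2 was -0.046 to 0.33 in the leave-outs (-0.033 without KO replicate 1) and -0.04 with KO replicates 1 and 2 summed. Beyond the construction of each alternative, the cause was not tested.

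Samples share only the endings of their titles: deviations of same-numbered libraries correlated at 0.02, -0.06 and -0.09. The replicate block gave 206 genes higher and 61 lower, 2 of the 9 genes higher, and 3 higher and 1 lower in the pathway lists; Pfkfb3 was then at -0.059. At the depth of these libraries Vldlr rests on 7 to 62 counts. It passed the count filter only through the KO libraries, and with no count filter its log2 fold change was 2.94.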

Other observations

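Of 12 listed genes that flank Apoe and Apoc2 on chromosome 7, 10 were tested and edgeR called 2 higher and 0 lower. The median log2 fold change was -0.028, and limma-voom called 1 lower. Relb, which encodes an NF-kappaB subunit, was at 19.0, 27.0 and 26.2 CPM in WT and at 46.1, 49.4 and 46.5 CPM in KO (0.97, edgeR adjusted p = 0.012). Nectin2, an adhesion molecule, was at 2.25, 3.07 and 1.97 CPM in WT and at 6.34, 7.49 and 4.77 CPM in KO (1.35, edgeR adjusted p = 0.029). Every KO library lay above every WT library for both genes. Relb lost its call without KO replicate 1 (0.0503) or KO replicate 2 (0.072), and Nectin2 without any 1 library other than KO replicate 3 (adjusted p of up to 0.14).

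Of 8 enzymes that make or break down oxysterols, the ligands of LXR, 4 were tested and edgeR called 0. DESeq2 called 1 higher and limma-voom called 2 higher. Cyp27a1, which makes 27-hydroxycholesterol, was at 15.6, 16.3 and 6.19 CPM in WT and at 25.2, 23.5 and 46.2 CPM in KO, with no overlap (1.32, edgeR adjusted p = 0.075). Ch25h, which makes 25-hydroxycholesterol, was at 0.776, 4.58 and 8.42 CPM in WT and at 6.82, 7.13 and 5.48 CPM in KO, with overlap (0.49, edgeR adjusted p = 0.69).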
